A study of Mus musculus with 6 samples.

Results

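The genes described here are 8 effector genes of the early pancreatic epithelium that were grouped because their RNA goes with that of Ptf1a: Nepn, Spon1, Matn4, Chst2, Fjx1, Parm1, P2rx1 and Rhov. They were given as a list chosen by RNA values of these libraries: their level by cell type, their detection together with Ptf1a and their difference between genotypes. Those RNA values are therefore a description of the genes and carry no test. All 8 are listed among the 31028 gene symbols of the RNA matrix and among the 8269 symbols of each accessibility matrix.

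Embryonic pancreatic tissue of C57BL/6 mice was compared between wild-type embryos (WT, genotype Ptf1a+/+) and embryos homozygous for the deletion of an enhancer of Ptf1a (KO, genotype Ptf1aenh-delta/enh-delta). At embryonic day 10.5 (E10.5), pools of 5 to 9 embryos per dataset gave single cells for RNA sequencing and, separately, nuclei for ATAC sequencing, in which a transposase cuts open chromatin. At E13.5, 6 embryos per dataset gave nuclei for ATAC sequencing. Each of the 6 groups is 1 library, so every comparison is between 2 libraries, no value has a replicate error, and the 95% intervals cover counting error only and are given as description.

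PTF1A is a basic helix-loop-helix transcription factor that marks the pancreatic bud soon after it forms and is later kept in acinar cells. It binds DNA together with an E-protein and with RBPJ, later replaced by the acinar factor RBPJL, over paired sites. The 8 genes are effectors rather than regulators of transcription: secreted and matrix proteins, Golgi enzymes and proteins of the cell surface or of cell shape.

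The 8 genes lie on chromosomes 2, 5, 7, 9, 10 and 11 of GRCm38, the assembly also called mm10, and 3 of them (Fjx1, Rhov and Matn4) share chromosome 2 with Ptf1a. Matn4 (chromosome 2, 164389393 to 164405160, minus strand) overlaps Rbpjl on the other strand by 2020 bases in GENCODE M21, so the accessibility scores of this pair share sequence, and no source used here gives the strand by which RNA was counted. For 6 of the 8 genes the RefSeq table of GRCm38.p6 holds a sequence before the start of transcription, and Spon1 and Fjx1 have no entry. The 4 stretches below are shown because they belong to the genes with the largest and some of the smallest losses of RNA in KO, and so that the letters PTF1A complexes are known to bind can be looked for. Each runs 5′ to 3′ on the gene's strand from 250 bases before the RefSeq start and stops at that start or at the first base of an exon of the gene in GENCODE M21. Capitals mark an E-box (CANNTG) or a box of the RBPJ type (TGGGAA, reverse complement TTCCCA), searched on both strands. The stretches are chr9:95407271-95407520 (minus strand), chr2:119271273-119271476 (minus strand), chr11:72998895-72999102 (plus strand) and chr10:52391358-52391607 (plus strand).
Chst2: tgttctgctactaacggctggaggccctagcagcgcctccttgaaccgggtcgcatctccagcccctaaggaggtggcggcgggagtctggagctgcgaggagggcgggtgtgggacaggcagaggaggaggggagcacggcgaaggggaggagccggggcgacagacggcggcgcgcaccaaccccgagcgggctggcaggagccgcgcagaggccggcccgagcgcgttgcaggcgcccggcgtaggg
Rhov: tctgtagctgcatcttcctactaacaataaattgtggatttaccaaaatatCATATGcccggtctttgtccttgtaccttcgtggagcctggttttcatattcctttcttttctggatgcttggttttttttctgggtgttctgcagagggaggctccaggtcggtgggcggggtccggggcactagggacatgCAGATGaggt
P2rx1: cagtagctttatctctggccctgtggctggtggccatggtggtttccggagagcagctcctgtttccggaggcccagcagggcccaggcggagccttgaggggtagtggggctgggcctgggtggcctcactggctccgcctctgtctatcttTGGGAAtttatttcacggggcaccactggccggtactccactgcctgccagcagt
Nepn: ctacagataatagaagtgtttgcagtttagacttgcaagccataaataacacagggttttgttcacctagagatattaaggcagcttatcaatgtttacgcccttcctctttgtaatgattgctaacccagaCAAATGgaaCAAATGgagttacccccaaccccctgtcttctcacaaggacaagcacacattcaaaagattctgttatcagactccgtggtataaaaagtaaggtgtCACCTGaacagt

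The stretch of Chst2, one of the genes whose RNA was lowest in KO relative to WT, held neither motif in these letters. That of Rhov held 2 E-boxes and no RBPJ-type box, that of P2rx1 held 1 RBPJ-type box and no E-box, and that of Nepn held 3 E-boxes, 1 of them in the form CACCTG. In the whole 250 bases, Parm1 held 1 E-box in the form CAGCTG, the first of the 2 Matn4 entries held 1 E-box and the other 2 RBPJ-type boxes. An E-box was thus present in 4 of the 6 genes, against 66.2% of all 32851 entries of the table, and an RBPJ-type box in 2 of the 6, against 21.6%. No entry of these genes held both motifs, which 14.8% of all entries do. These are matches of letters in a short window, and distal elements were not searched.

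The filter of at least 1000 detected genes kept 451 WT cells with a median of 6700 UMIs (unique molecular identifiers, each counting 1 captured RNA molecule) and 369 KO cells with a median of 9856. Clusters were made without Ptf1a, the tip and acinar genes and the 8 genes themselves. The progenitor class (123 WT and 75 KO cells) was the cluster with the highest progenitor markers. At a finer setting 109 WT and 42 KO cells of the class fell in a pancreatic cluster (110 and 42 cells in all), whose top genes were Nepn, Spp1 and Spon1 once all genes were ranked, and 14 WT and 33 KO cells in a hepatobiliary-like cluster (18 and 34 in all), topped by Sox17, Itih2 and Paqr9. Class values therefore mix cell makeup with levels, and values for the pancreatic cluster are given beside them. Within the pancreatic cluster, Pdx1, an early transcription factor of the pancreatic bud, stood at 251 CPM (counts per 1000000 UMIs) in WT and 189 CPM in KO, while the summed level of 12 hepatobiliary markers was 647 CPM in WT and 1760 CPM in KO. The part of that marker difference in the results below was not tested. Ptf1a had 108 UMIs in the WT class and 0 in the KO class.

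In WT tissue each of the 8 genes had its highest level in the progenitor class. Cluster 3, headed by Sox17 and Ube2c, is left unnamed. So is cluster 4, where 10 of 12 mesenchymal and 9 of 14 endocrine markers were raised, with summed WT levels of 1132 and 11563 CPM. Nepn stood at 1299 CPM (1244 to 1355) in the class, 467 CPM in the mesenchyme-like cluster, 438 CPM in cluster 3, 84.6 CPM in cluster 4 and 43.2 CPM in the endocrine-like cluster. The endocrine-like cells, which arise from the same epithelium, therefore had the lowest Nepn level. Chst2 went from 161 CPM in the class to 7.41 CPM in the endocrine-like cluster, Rhov from 84.5 to 3.71 CPM, Spon1 from 171 to 4.94 CPM and Fjx1 from 101 to 1.24 CPM.

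P2rx1 was the gene whose first and second places were closest: 63.4 CPM (51.8 to 76.7) in the class and 60.8 CPM (38.5 to 91.2) in cluster 3. WT cluster 3 also held Ptf1a RNA, at 47.5 CPM (18 UMIs in 16 of 86 cells) against 65.2 CPM in the class. Fjx1 stood at 104 CPM (88.0 to 122) in the WT pancreatic cluster and 77.7 CPM (44.4 to 126) in the WT hepatobiliary-like cluster. For the other 7 genes these epithelia lay further apart: Nepn was at 1463 CPM against 77.7 CPM, Spon1 at 189 against 34.0 CPM, Chst2 at 180 against 14.6 CPM, and Matn4 at 53.3 CPM against 0 UMIs, which allows up to 17.9 CPM. Parm1 (161 against 38.9 CPM), P2rx1 (71.1 against 9.72 CPM) and Rhov (95.7 against 4.86 CPM) followed the same order.

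The level in the mesenchyme-like cluster (median 2429 UMIs per WT cell) came with a mix of the genes close to that of the class. Of the UMIs of the 8 genes and Ptf1a together, Nepn made up 60.7% in the WT class, 63.3% in the WT mesenchyme-like cluster and 50.7% in WT barcodes below the gene minimum. Chst2 made up 7.51%, 9.48% and 11.2% of them, and Ptf1a 3.05%, 2.53% and 2.24%, in the same order. In KO the Nepn share of the same sum was 77.2% in the class, 75.6% in the mesenchyme-like cluster and 66.7% in barcodes below the minimum. Chst2 differed: at 0.760% of the sum in the KO class, it made up 4.48% in the KO mesenchyme-like cluster (9 UMIs) and 7.25% below the minimum (5 UMIs). The amounts were less alike than the mix. In WT the 8 genes together stood at 718 CPM in the mesenchyme-like cluster, 235 CPM below the minimum and 85.2 CPM in the endocrine-like cluster. Of the 401 Nepn UMIs of the WT mesenchyme-like cluster, 1 cell held 66. The part of RNA free of cells in the mesenchymal values was not tested.

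**Figure D1:**
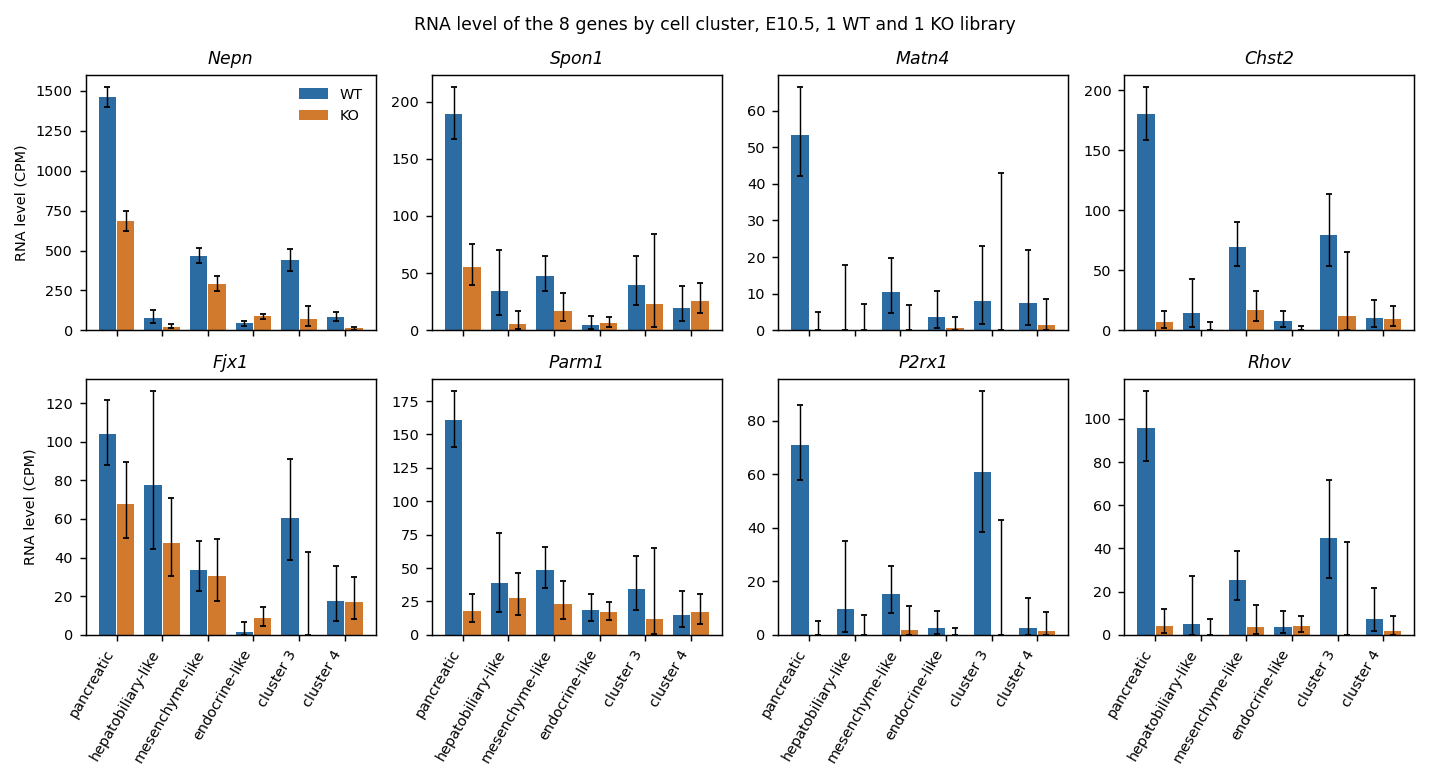
RNA level in CPM (y axis, linear from 0, 1 panel per gene) by cell cluster at E10.5 in the WT (blue) and KO (orange) library; bars are UMI sums scaled to CPM and whiskers exact Poisson 95% intervals. The WT pancreatic cluster has the tallest bar in all 8 panels, P2rx1 is nearly as high in WT cluster 3 (60.8 CPM), and in KO the pancreatic bar of Nepn (684 CPM) and Fjx1 (67.6 CPM) is the part that remains most visible.

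KO and WT cells of the class were then compared. Between these libraries 7 of the 8 genes were lower in KO by at least 2-fold on the scale of log2 (CPM + 10), beside 0.704% of all 6959 genes with at least 50 UMIs. The genes were chosen for this difference, so nothing is read from the count. Their median log2 ratio was -2.42, or -2.26 with the genes at 0 set to a floor of 3 counts, and the median over all genes was 0.15. In the pancreatic cluster 7 of 8 were lower again, beside 1.13% of 5994 genes, with a median of -2.64 (-2.34 at the floor). The sizes were very uneven, as the next values show gene by gene.

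The matrix and secreted proteins came first. Nepn (nephrocan, a secreted protein with leucine-rich repeats) had 2152 UMIs in the WT class and 508 in the KO class, 1299 and 417 CPM, a log2 ratio of -1.62. In the pancreatic cluster it was at 1463 CPM in WT and 684 CPM (625 to 747) in KO, 2.14-fold lower (1.94 to 2.36), so it remained well detected in KO. Spon1 (F-spondin, an extracellular matrix protein known from axon guidance) had 284 and 43 UMIs in the class, 4.85-fold lower (3.51 to 6.86), and was 3.43-fold lower (2.46 to 4.91) in the pancreatic cluster. Matn4 (matrilin-4, an adaptor protein of matrix filaments) had 78 UMIs in the WT class and 0 in the KO class, at least 19.1-fold lower against a floor of 3 counts in the KO library, and at least 12.9-fold lower in the pancreatic cluster. The exact interval of the ratio, which adds the counting error of WT, reaches down to 15.2-fold and 10.2-fold. Rbpjl, which overlaps Matn4, had 29 and 0 UMIs in the class, while the next gene on that side, Sdc4, had 100 and 103.

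The Golgi enzymes took opposite ends of the range. Chst2 (a sulfotransferase that adds sulfate to N-acetylglucosamine of glycan chains) had 266 UMIs in the WT class and 5 in the KO class, 39.1-fold lower (16.5 to 121), which placed it second from the lowest log2 ratio among the 6959 genes, after the carboxypeptidase gene Cpa1 (377 and 1 UMIs). In the pancreatic cluster its log2 ratio was -3.49, from 263 and 5 UMIs. Fjx1 (four-jointed box kinase 1, which in flies acts in the Fat and Dachsous system of tissue polarity) had 167 and 73 UMIs, a log2 ratio of -0.66, and was the gene that did not reach 2-fold. It was 1.54-fold lower (1.11 to 2.17) in the pancreatic cluster.

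The surface proteins and Rhov were all far lower in KO. Parm1 (a mucin-like membrane protein) had 243 UMIs in the WT class and 26 in the KO class, and 235 and 13 in the pancreatic cluster, where it was 8.96-fold lower (5.14 to 17.1). P2rx1 (a cation channel opened by extracellular ATP) had 105 and 0 UMIs in the class, at least 25.7-fold lower against the same floor, and 104 and 0 in the pancreatic cluster, at least 17.2-fold lower, with intervals that reach down to 20.6-fold and 13.7-fold. Rhov had 140 and 3 UMIs in both sets of cells, with a log2 ratio of -2.92 in the class and -2.90 in the pancreatic cluster. Chst2, Rhov, P2rx1 and Matn4 were thus at 5 UMIs or fewer in KO, Parm1 and Spon1 lay between, and Nepn and Fjx1 remained at 417 and 59.9 CPM in the KO class.

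**Figure D2:**
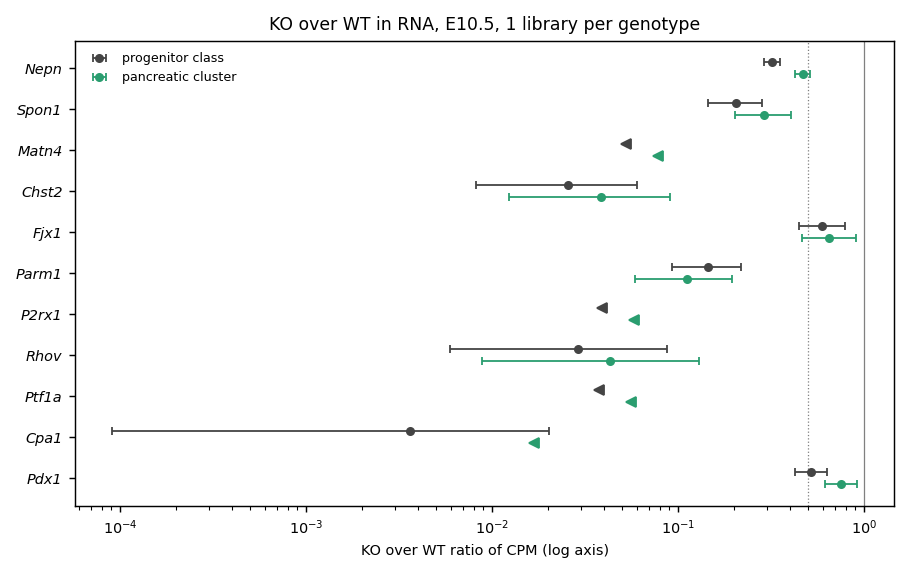
KO over WT ratio of CPM (x axis, log scale) for the 8 genes, Ptf1a, Cpa1 and Pdx1 at E10.5 in the progenitor class (grey) and the pancreatic cluster (green); whiskers are exact conditional 95% intervals, a left-pointing triangle is the ratio at the floor of 3 counts where KO had 0 UMIs, and the lines stand at equal levels and at the 2-fold difference. Of the 8 genes Nepn and Fjx1 lie nearest to equal levels, and Chst2, Rhov, P2rx1 and Matn4 lie at or below a ratio of 0.1.

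Restricting the class to cells with a Pdx1 UMI (97 WT and 37 KO cells) left Nepn at 1450 and 713 CPM, Chst2 at 178 and 7.47 CPM and Rhov at 89.2 and 2.99 CPM. Over all kept cells 7 of 8 genes were lower by 2-fold, beside 0.270% of 10367 genes. In the mesenchyme-like cluster 4 of the 8 reached the 50-UMI minimum and 2 of these, Spon1 (log2 ratio -1.09) and Chst2 (-1.56), were lower by 2-fold, beside 0.290% of 4828 genes. In cluster 3 (86 WT and 20 KO cells) 1 of the 8, Nepn, reached the minimum and was lower by 2-fold, beside 33 of 1330 genes. It had 166 and 6 UMIs there, 438 and 70.0 CPM, a log2 ratio of -2.49. In the endocrine-like cluster 1 of the 8, again Nepn, reached the minimum. It was there at 43.2 CPM (30.1 to 60.1) in WT and 87.5 CPM (73.3 to 104) in KO, but 1 cell held 18 of the 35 WT UMIs and 1 cell 35 of the 134 KO UMIs. A Nepn UMI was seen in 16.7% of these cells in WT (8.62 to 27.9%) and 23.6% in KO (16.8 to 31.5%). Parm1 was at 18.5 CPM in WT and 17.0 CPM in KO endocrine-like cells, and Chst2 had 6 and 1 UMIs.

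The relatives of 7 of the 8 genes show whether a family had other members at a measurable level in the class. Among 13 other carbohydrate sulfotransferase genes, 13 small leucine-rich proteoglycan genes, 10 spondin, R-spondin and thrombospondin genes, 3 matrilins and 6 P2X receptors, 0 reached 50 UMIs in the 2 class libraries together. In these families the listed gene was the 1 that reached the minimum. Of 13 other Fat, Dachsous and planar polarity genes 4 reached it and 0 were lower by 2-fold in KO, from Celsr2 (-0.20) to Vangl2 (0.45), and Cd164 was the 1 of 8 other mucin genes to reach it (0.14). Of the tip and acinar genes 4 of 17 reached it and 2, Cpa1 and the colipase gene Clps (197 and 4 UMIs), were lower, while Gata4 was the highest (0.40). Of 12 progenitor factors, 3 were lower: Mnx1, the lowest at -2.05, Nkx2-2 (-1.91) and Nkx6-1 (-1.58), with Gata6 the highest at 0.68. The share lower by 2-fold was 0.704% over all 6959 genes of the class, so 0 lower among so few relatives says little.

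Co-detection in single cells was measured in the WT class, where 62 cells had a Ptf1a UMI (median 14071 UMIs) and 61 did not (median 11168). Each of the 8 genes had a higher CPM in the cells with a Ptf1a UMI, from 1.14-fold for Fjx1 (107 and 93.4 CPM, interval of the ratio 0.829 to 1.58) to 2.13-fold for Matn4 (61.3 and 28.8 CPM). Other genes did so too, with a ratio of 2.46 for Spp1, above each of the 8. It was 1.31 for Cpa1, 1.22 for Pdx1, 1.16 for Sox9 and 1.02 for Actb. Epcam went the other way, at 722 and 798 CPM, a ratio of 0.905. The share of all genes with a ratio above 1 was not counted. These cells are not replicates, and the cells without a Ptf1a UMI were shallower and held all the hepatobiliary-like cells of the class.

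Within the WT pancreatic cluster alone, where 62 cells had a Ptf1a UMI and 48 did not, the ratios of the 8 genes were lower. Rhov stood at 95.8 CPM in the cells with and 95.5 CPM in those without, a ratio of 1.00 (0.703 to 1.45). Nepn stood at 1456 and 1475 CPM, a ratio of 0.987 (0.904 to 1.08). Fjx1, Parm1 and Chst2 had ratios of 1.07, 1.09 and 1.14. Spon1 had 1.28 (0.985 to 1.67), P2rx1 1.42 (0.917 to 2.25) and Matn4 1.56 (0.932 to 2.71), while Spp1 stood at 2.29. With each cell of this cluster thinned to 5000 UMIs, which left 28 cells with a Ptf1a UMI and 73 without, P2rx1 had the highest ratio of the 8, 2.12 (1.15 to 3.87), while Matn4 and Fjx1 were below 1. At this depth a cell without a Ptf1a UMI is not shown to lack Ptf1a RNA, so the ratios compare detection.

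The WT cells without a Ptf1a UMI were set beside the KO cells of the same cluster (42 cells, median 16906 UMIs against 10967). Chst2 was at 165 CPM in these WT cells and 6.90 CPM in KO, a ratio of 0.0419 (0.0133 to 0.101). Rhov was at 95.5 and 4.14 CPM, a ratio of 0.0433 (0.00865 to 0.134), and P2rx1 at 56.1 CPM and 0 UMIs. Parm1 had a ratio of 0.118, Spon1 0.343 and Nepn 0.464 (0.414 to 0.520). Fjx1 had the ratio nearest to 1, 0.681 (0.452 to 1.02).

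**Figure D3:**
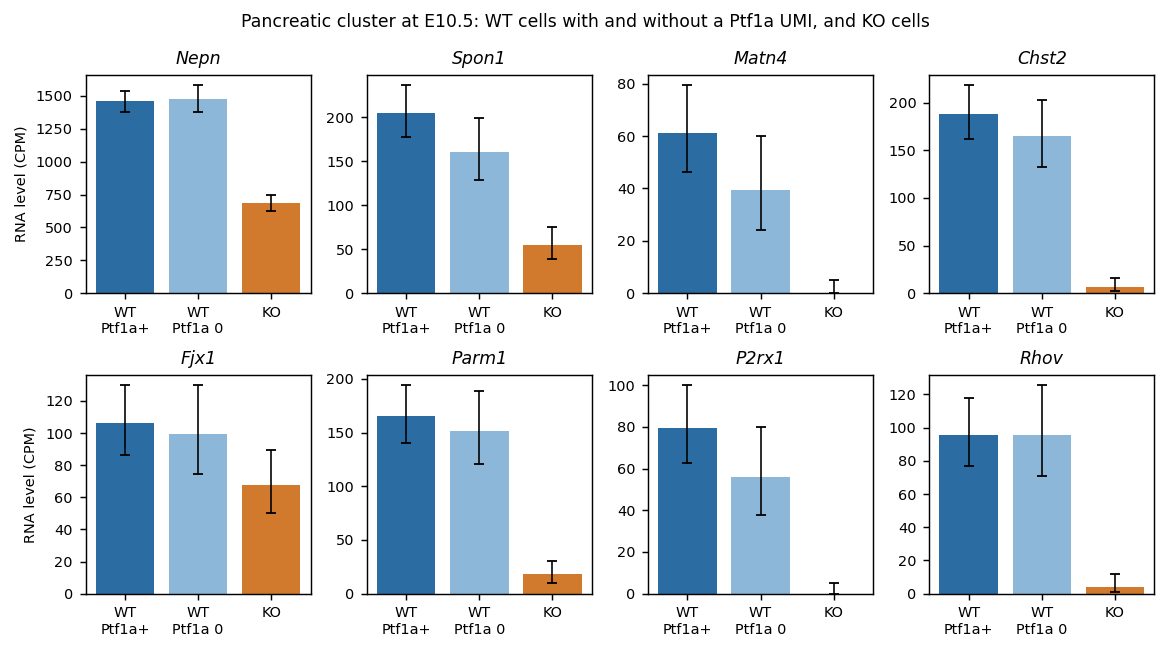
RNA level in CPM (y axis, linear from 0, 1 panel per gene) in the E10.5 pancreatic cluster for WT cells with a Ptf1a UMI (dark blue, 62 cells), WT cells without one (light blue, 48 cells) and KO cells (orange, 42 cells), with exact Poisson 95% intervals. The KO bar is the lowest in each panel and comes nearest to the WT bars for Fjx1.

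Counted per cell, the WT class cells had a median of 6 of the 8 genes with a UMI and the KO class cells a median of 2, although KO cells were deeper (medians 12928 and 15999 UMIs). At least 5 of the 8 were seen in 82 of 123 WT cells (66.7%) and in 1 of 75 KO cells (1.33%). The WT endocrine-like cells, of like depth (median 11652 UMIs), had a median of 0. With cells thinned to 5000 UMIs the counts were 22 of 112 WT cells (11 left out) and 0 of 70 KO cells (5 left out), where 3 cells would be 4.29%. The WT cells with a Ptf1a UMI had a median of 6 genes, none had fewer than 2, and 11 of 62 had all 8. Those without had a median of 5, and 3 of 61 had all 8. These 2 sets differed in depth. Thinned to 5000 UMIs (28 and 84 cells), the medians were 4 and 3 and the means 3.64 and 3.21. At that depth 0 cells of either set had all 8. In the WT mesenchyme-like cluster 10 of 155 cells (6.45%) had at least 5 of the genes, and 0 of 99 in KO.

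**Figure D4:**
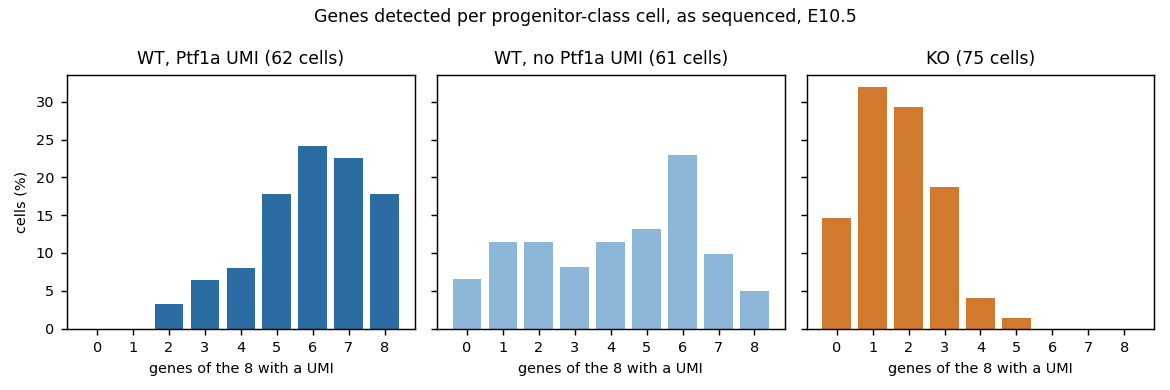
Share of progenitor-class cells (y axis, percent) by how many of the 8 genes had a UMI (x axis), as sequenced at E10.5, for WT cells with a Ptf1a UMI, WT cells without one and KO cells. The WT cells with a Ptf1a UMI start at 2 genes, those without spread from 0 to 8, and the KO cells end at 5.

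The pattern of the 8 genes over 10 points (5 clusters in 2 libraries, UMI sums) was compared with that of 6006 genes with at least 200 UMIs. The most like were Gm266 (r = 0.92), Vtn (0.91), Gamt (0.90), Aldh1b1 (0.88) and Ddx18 (0.88), where r is Pearson's correlation with the mean profile. The points share library and depth, so r is given as a description. Gm266 had 118 and 13 UMIs in the class and Aldh1b1, an aldehyde dehydrogenase known from pancreatic progenitors, 117 and 25. Ptf1a itself, measured with fewer UMIs, had r = 0.94, and the 8 genes ranged from 0.84 (Fjx1) to 0.96 (Rhov). The 8 genes form the mean profile and were chosen to go with Ptf1a in these values. High r for them and for Ptf1a is therefore built in.

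Accessibility was compared at the same stage. The deposited score sums over each cell to 10000, has no counts behind it and so carries no interval. Over all E10.5 nuclei (838 WT and 700 KO) all 8 genes had a lower mean score in KO, as did 50.4% of all 8219 genes, but 0 of the 8 reached a log2 ratio of -0.5, which 0.414% of all genes did. The largest difference was that of Rhov, from 1.27 in WT to 1.01 in KO (log2 ratio -0.33), and the median over the 8 was -0.17. Ptf1a went from 2.43 to 1.70 (-0.51). Chst2, at 5 RNA UMIs in the KO class, went from 1.01 to 0.97 (-0.06), and Nepn from 0.76 to 0.74 (-0.03).

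In the largest E10.5 cluster (cluster 0, 492 WT and 439 KO nuclei, unnamed by its markers), 1 of 8 genes passed -0.5, beside 0.255% of 8225 genes. This was Rhov, from 1.45 to 0.94 (-0.63), the eighth lowest of those genes, where Ptf1a was sixth (2.72 to 1.72). P2rx1 went from 1.18 to 0.98 (-0.28), and Matn4, at 0 RNA UMIs in the KO class, was at 0.77 and 0.79. Nepn (-0.22) and Fjx1 (-0.21), which kept most RNA in the KO class, were lower by more than Parm1 (-0.04) and Chst2 (-0.02). Rhov was above 0 in 52.6% of WT (48.1 to 57.1%) and 48.1% of KO nuclei (43.3 to 52.9%) at medians of 5708 and 6028 genes above 0. The lower mean of Rhov therefore came with overlapping shares of nuclei. Nepn had the lowest score of the 8 in the endocrine-like nuclei (cluster 2), at 0.13 in WT and 0.24 in KO. It stood at 0.88 and 0.75 in cluster 0 and 0.69 and 0.89 in cluster 1. Spon1, Chst2 and Matn4 were also lowest in cluster 2 in both genotypes. Spon1 was there at 1.24 in WT, against 2.01 in cluster 0 and 2.15 in cluster 1. P2rx1 was highest in cluster 2, at 1.51 in WT and 1.52 in KO. Fjx1, Parm1 and Rhov took different places in WT and KO.

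At E13.5 the all-nuclei comparison mixes cell types: a red-cell-like cluster was 6.05% of 2314 WT and 45.2% of 602 KO nuclei. Over all nuclei 7 of 8 genes were below -0.5, beside 16.0% of all genes, and the 8 scored between 0.03 and 0.56 in the red-cell-like WT nuclei. The barcodes also name different months for the WT and the KO library, which cannot be told apart from genotype. Without that cluster 5 of 8 were below -0.5, beside 1.65% of 8227 genes, and Nepn was higher in KO (0.72). The nuclei left still differed in makeup, since cluster 1 held 857 of 2174 in WT and 54 of 330 in KO. In the largest cluster (cluster 0, 938 WT and 228 KO nuclei, the one with the highest epithelial markers, unnamed) 3 of 8 were, beside 1.18% of 8230 genes.

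These 3 were Rhov, from 2.92 in WT to 1.65 in KO (log2 ratio -0.82), Chst2, from 1.40 to 0.92 (-0.61), and Parm1, from 1.13 to 0.76 (-0.57). Rhov was the eighth lowest of the 8230 genes there and Ptf1a the second (4.37 to 1.94). P2rx1 went from 1.67 to 1.22 (-0.45), Matn4 from 1.29 to 0.96 (-0.43) and Spon1 from 2.33 to 1.94 (-0.27). Rbpjl, which overlaps Matn4, went from 1.34 to 0.84 (-0.67), and Sdc4 beyond it from 1.82 to 1.78. Fjx1 was at 2.03 and 2.06, and Nepn was higher in KO, 0.28 against 0.38 (0.44). Other sets of nuclei differed from this one: Fjx1 was at -0.71 over all nuclei and at -1.01 in cluster 1. Chst2 (0.22) and Spon1 (0.03) were not lower in cluster 1. Its 54 KO nuclei had a median of 1420.5 genes above 0, and 1865 of 7555 genes were below -0.5 there. In the endocrine-like cluster (379 WT and 48 KO nuclei) 3 of 8 genes were below -0.5, beside 792 of 8217 genes. These were Matn4 (-1.32), Chst2 (-1.11) and Parm1 (-0.68). There 2 of the 8, Nepn (0.78) and Fjx1 (0.54), were above 0.5, beside 779 of all genes. In cluster 0 Rhov was above 0 in 63.2% of nuclei of either genotype, and KO nuclei of cluster 0 had more genes above 0 (median 5939 against 4510).

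**Figure D5:**
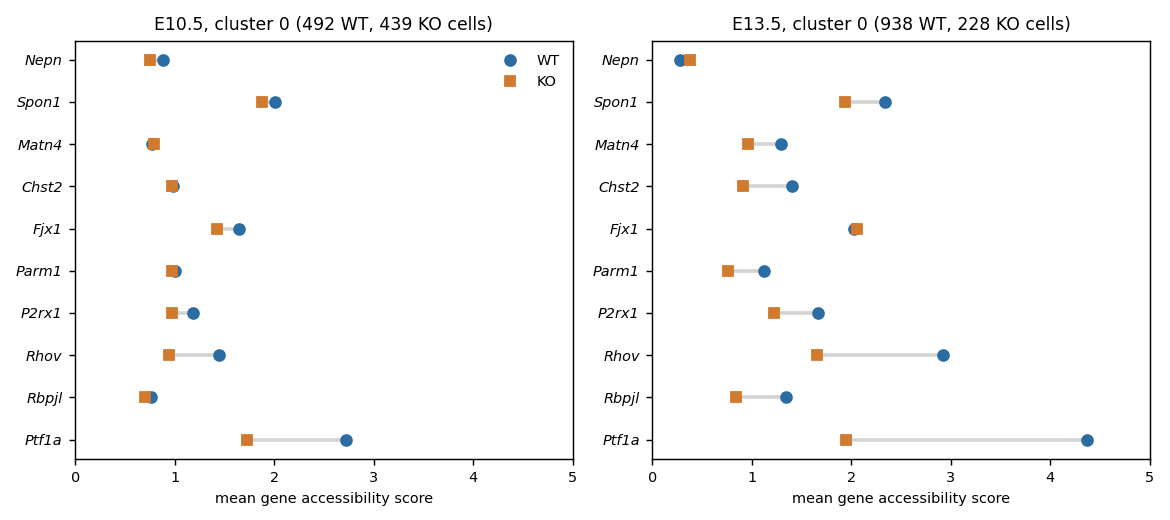
Mean gene accessibility score (x axis, the deposited scaled signal) of the 8 genes, Rbpjl and Ptf1a in the largest cluster at E10.5 (left) and E13.5 (right), WT as blue circles and KO as orange squares joined by a grey line; no error is shown because the signal carries no counts. The line of Rhov is the longest of the 8 at both stages, and Nepn and Fjx1 show no lower KO value at E13.5 in this cluster.

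Within the WT nuclei of the E13.5 cluster, 720 had a Ptf1a score above 0 and 218 had 0. The log2 ratio of the means between them was 0.33 for Nepn, 0.28 for Parm1, 0.25 for Rhov, 0.24 for Matn4 and -0.24 for Spon1. Chst2 had 0.17, P2rx1 0.13 and Fjx1 0.08, at medians of 4713 and 4104 genes above 0. Outside the list Rbpjl, which overlaps Matn4, had 0.35, Pdx1 0.11 and Epcam 0.05. In the E10.5 cluster (397 and 95 WT nuclei) this log2 ratio was 0.46 for Matn4, 0.29 for Rhov, -0.11 for Chst2 and -0.15 for Nepn. Parm1 had 0.22, P2rx1 0.16, Fjx1 0.05 and Spon1 -0.02, at medians of 5861 and 5030 genes above 0. Outside the list Rbpjl had 0.58, Pdx1 0.45 and Epcam -0.13. Positive ratios were therefore not limited to the listed genes. The nuclei with a Ptf1a score above 0 also had more genes above 0 at both stages.

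The WT scores also stood at other levels at the later stage, in tables scaled separately. In the largest WT cluster of each stage Rhov was at 1.45 at E10.5 and 2.92 at E13.5, and Nepn at 0.88 and 0.28. Nepn was above 0 in 46.7% of those WT nuclei at E10.5 and 14.2% at E13.5, at medians of 5708 and 4510 genes above 0. The clusters were made separately and are not shown to hold the same cell type.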

How the data were processed

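Single-cell RNA and ATAC matrices of 6 libraries were used, 1 per group. The RNA values are raw UMI counts as deposited, by 10x 3′ chemistry per the labels' protocols. The ATAC values are a gene-level accessibility signal as deposited, scaled to 10000 per cell. No source used here names the tool behind it, the aligner or the counting strand. The build was mm10 per the submitters' processing notes. Genotypes came from barcode prefixes; 0 columns were unmapped, and 1 RNA, 0 E10.5 and 2 E13.5 ATAC barcodes occurred in both genotypes.

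RNA cells with at least 1000 genes were kept. Clusters came from scanpy 1.11.5 with leidenalg 0.10.2 (2000 variable genes, 30 components, 15 neighbours, resolution 0.3, finer 0.5), leaving out Ptf1a, the tip and acinar list and the 8 genes. Doublets (2 WT and 8 KO cells by scrublet) were kept. RNA log2 ratios used CPM plus 10, which understates changes of low genes; a gene needed 50 UMIs over the pair of libraries. ATAC log2 ratios used mean scores of genes above 0 in at least 10% of a library's cells. Intervals are exact Poisson, Clopper-Pearson or conditional binomial at 95%. Calculations were tested on simulated data. With 1 library per group no test was run, and a 2-fold RNA ratio or a log2 ATAC ratio of 0.5 serves to count genes.

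The genes and lists were chosen with earlier results of these data known. Named genes were the 8, Ptf1a, Cpa1, the highest and lowest gene of each list and the 5 most like in profile; Rbpjl, Sdc4, Pdx1, Clps, Nkx2-2, Nkx6-1 and genes that lead a cluster were added. The result of 1 list is not reported here. Alternatives were other pseudocounts, scaling, filters, thinning, resolutions and cell sets. Libraries were not left out in turn, since each group has 1.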

Additional observations from a re-analysis of the deposited data

How the results depend on the processing

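The count of genes at least 2-fold lower in the KO class was 7 of 8. It was 2 of the 2 that still reached 50 UMIs with cells thinned to 2000 UMIs, 4 of 5 at 5000 UMIs and 4 of 6 at resolution 0.8, where fewer genes reached the minimum. Over all kept cells the 7 became 2 with a pseudocount of 50 CPM and 4 of 4 at 2000 UMIs. Higher CPM with a Ptf1a UMI was seen for 8 of 8 genes and for 4 of 8 at 2000 UMIs, where Nepn had a ratio of 0.886, Chst2 0.986, Parm1 0.893 and Matn4 0 (19 cells with a Ptf1a UMI). It also turned for Nepn in the pancreatic cluster (0.987) and for Matn4 at 5000 UMIs (0.882, and 0.767 in that cluster), and Fjx1, whose interval had included 1, fell below 1 at 5000 UMIs (0.714, and 0.668 in that cluster); the cause was not tested. Thinning to 5000 UMIs and the pancreatic cluster for co-detection were added after seeing the data. At E10.5 the ATAC count of 0 became 1 without the 10% of cells at each end of genes above 0 and 1 in the largest cluster. At E13.5 the 7 became 0 by share of cells above 0 and 3 in the largest cluster. Fjx1 turned there to a log2 ratio of 0.0235. Without the red-cell-like cluster the count was 5. The share of all genes below -0.5 was 0.414% at E10.5 and 0.255% in its largest cluster. At E13.5 it was 16.0%, 1.18% in the largest cluster and 1.65% without the red-cell-like cluster. For the other alternatives, in RNA and ATAC, the share over all genes is not given here, so nothing is read from those counts. Of 280 values of single genes under an alternative, 189 moved little, 83 moved by more and 8 turned; a turn is counted for values past 2-fold, a log2 ATAC ratio of 0.5 or an interval without 1, so Fjx1 at 5000 UMIs and Matn4 in the largest E10.5 ATAC cluster (-0.24 to 0.04) are not among them. No paired analysis was possible because each group has 1 library. RNA depth limits Matn4, P2rx1 and Ptf1a most, and the ATAC depth is unknown.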
